A study of Mus musculus with 15 samples.

Results

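RNA-Seq values from 3 FAM3C KO clones were compared directly with those from 3 LIFR KO clones, which make up 6 of the 15 samples of the series. NMuMG is an epithelial line from normal mouse mammary gland. All 6 lines are derivatives of NMuMG cells that stably carry an shRNA against PCBP1 (shPCBP1 cells), so PCBP1 is knocked down in both groups and in the lines used beside them. The FAM3C KO clones are labelled FAM3C -/- and the LIFR KO clones LIFR -/-, each made with CRISPR-Cas9 and grown from a single cell, and 1 RNA sample was sequenced per clone. The other lines used here are unaltered shPCBP1 cells, 3 CT clones that received Cas9 without a gene-specific guide, and 1 FAM3C/LIFR double KO line. A second dataset holds 2 shPCBP1 samples and 2 control NMuMG samples, which the labels give as NMuMG cells without treatment and the study calls shSCR, a scrambled shRNA control. Which of these the controls were could not be settled from the values, so that contrast is given as PCBP1 knockdown against control. In the FAM3C KO and LIFR KO groups a replicate is therefore a clone, and the spread within a group holds both the variation between clones and that between single samples. In the second dataset the labels give replicates and not clones, so the spread there is that between samples of the same line.

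CPM is the read count of a gene scaled to the size of its library. Of 12540 genes whose mean over the 6 clones reached 0.5 CPM, 304 were separated consistently by clone. In a separated gene all 3 FAM3C KO clones lay on one side of all 3 LIFR KO clones, the group means on the log2(CPM + 0.1) scale differed by at least 1, every LIFR KO clone lay at least 1.5-fold from the FAM3C KO mean, and the higher group had a mean of at least 1 CPM. The rule kept a gene only where LIFR KO 1 moved in the same direction as LIFR KO 2 and 3. Since this rule uses the measured values, the separation of these genes is a description and not a test. On this scale the difference between low values is understated.

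FAM3C, also called ILEI, is a secreted cytokine-like protein known for its part in epithelial-mesenchymal transition, and PCBP1 is an RNA-binding protein that holds back translation of the FAM3C message. LIFR is the receptor for leukemia inhibitory factor. It pairs with gp130, encoded by Il6st, and signals through JAK kinases to STAT3, whose targets include the feedback inhibitor Socs3. The comparison asks which genes depend on the ligand and which on the receptor, when either is removed from the same shPCBP1 background.

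The guides are shown because they define both groups. The study's guides were designed in pairs against 1 exon, and the sequences below are 5′ to 3′, with the NGG motif next to the target in capitals (CCN where a guide was listed on the opposite strand). Coordinates are GRCm38 and cover the letters of the guide as listed, which includes the motif for the guides of exon 5 of Fam3c.
Fam3c exon 3, guide 2, chr6:22339354-22339373, minus strand: tgcaaagttggtagtggccgTGG
Fam3c exon 5, guide 1, chr6:22328648-22328670, minus strand: CCTccgaggtacaagtgtgggat
Fam3c exon 5, guide 2, chr6:22328565-22328587, minus strand: cgtgggacccaagatctgccTGG
Lifr exon 2, guide 1, chr15:7154439-7154458, minus strand: ttattgtctaccatccacgaTGG
Lifr exon 2, guide 2, chr15:7154514-7154533, plus strand: catctgacgatgcatgcaaaCGG
Lifr exon 6, guide 1, chr15:7166908-7166927, plus strand: gtaaagataccgttcagcacTGG
Each of these sites lies in a coding exon. The other 2 of the 8 guides, guide 1 of Fam3c exon 3 and guide 2 of Lifr exon 6, had no match in the GENCODE M21 transcripts and are not placed here. The pair in Fam3c exon 5 spans 106 bases and the pair in Lifr exon 2 spans 95 bases, so a deletion between paired guides removes a small part of the transcript. The deposited values count reads over the whole gene and do not show the deletion itself.

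The 3 LIFR KO libraries were not alike. In LIFR KO 2, LIFR KO 3 and the double KO, the difference from the shPCBP1 mean fell with the GC content of the transcript (Spearman's correlation across genes −0.76, −0.75 and −0.71). In LIFR KO 1 the correlation was 0.07, and in the other 7 libraries it lay between −0.29 and 0.24. Mitochondrially encoded genes took 7.16% to 8.58% of the summed CPM in the same 3 libraries and 3.14% to 4.06% in the other 8. The median difference of all 12540 genes between the FAM3C KO mean and LIFR KO 1 was 0.00 (log2), against 0.22 for LIFR KO 2 and 0.20 for LIFR KO 3. A GC correction, which removed a smooth curve of each library's difference on transcript GC content, was run beside the deposited values. Of the epithelial markers, Cdh1 was at 246 to 362 CPM and Krt8, Krt18 and Krt19 at 218 to 1202 CPM in all libraries. Cldn7 lay between 0.107 and 0.525 CPM, Grhl2 between 0.240 and 0.890 CPM and Ovol1 between 0.0862 and 0.488 CPM. Of 28 listed epithelial adhesion and keratin genes, 22 had values and 18 were tested. Among 14 markers of fibroblasts, immune, endothelial and fat cells, 6 were in the file and 3 were tested, led by Cd68 at 4.29 to 10.8 CPM. The median difference of these 3 was 0.20, and none passed the test.

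**Figure D1:**
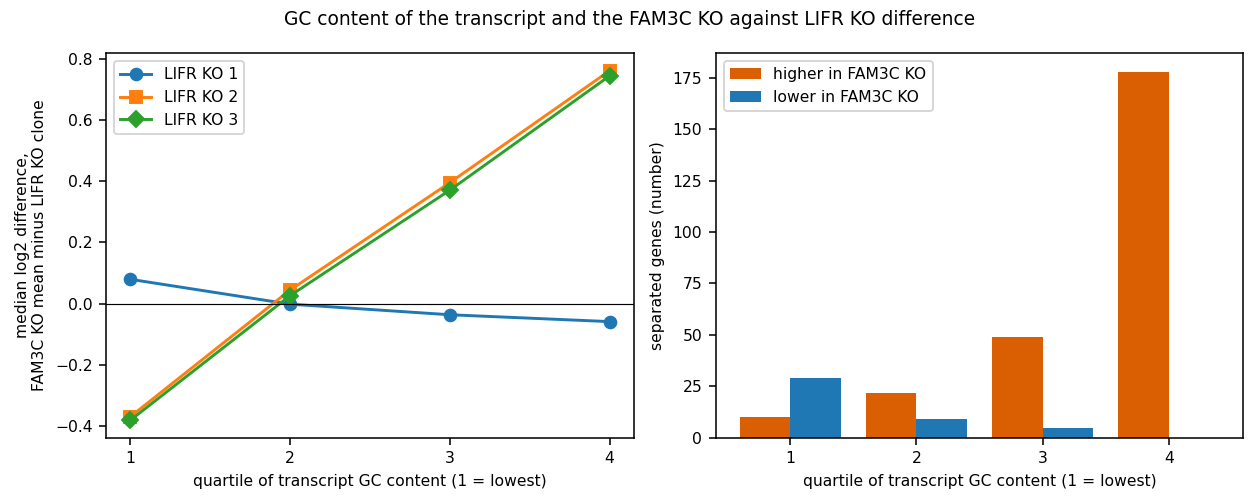
Left, the median log2 difference between the FAM3C KO mean and each LIFR KO clone in quartiles of transcript GC content. Right, the number of separated genes in each quartile, higher (orange) or lower (blue) in FAM3C KO. LIFR KO 2 and 3 run from −0.37 and −0.38 in the lowest quartile to 0.76 and 0.75 in the highest, LIFR KO 1 stays between −0.06 and 0.08, and 178 of the separated genes higher in FAM3C KO are in the highest quartile.

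The library labelled LIFR KO 3 also differed from the other LIFR KO clones in its profile. After the GC correction its correlation across genes was 0.982, 0.969 and 0.978 with FAM3C KO 1 to 3 and 0.979 with the double KO, but 0.951 with LIFR KO 1 and 0.955 with LIFR KO 2, which correlated with each other at 0.983. These correlations describe single libraries over the same genes. The label is followed here. Gene-level values do not show a genotype, and whether this library holds the cells its label names was not tested, which bears on every LIFR KO mean that includes it. The main counts and some of the genes are given with and without it below, and the rest are not shown both ways.

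In the targeted genes, the Fam3c message was lower in FAM3C KO and the Lifr message was not lower in LIFR KO as a group. Fam3c was at 26.4, 33.9 and 42.9 CPM in FAM3C KO 1 to 3 and at 50.0, 70.1 and 44.5 CPM in LIFR KO 1 to 3. The groups did not overlap, the log2 difference was −0.67 (SE 0.24, adjusted p = 0.237, limma), and the exact permutation test gave p = 0.1, the smallest that 3 against 3 allows. The shPCBP1 lines had 53.3, 54.9, 47.0 and 59.4 CPM of Fam3c and the double KO had 42.3 CPM. Lifr was at 13.5, 10.5 and 19.2 CPM in FAM3C KO and at 34.9, 29.3 and 14.6 CPM in LIFR KO. The first 2 LIFR KO clones thus lay within the shPCBP1 range of 25.8 to 40.2 CPM, while LIFR KO 3 lay inside the FAM3C KO range. The log2 difference was −0.81 (SE 0.36, adjusted p = 0.292, limma; exact permutation p = 0.2) and without LIFR KO 3 it was −1.19 (adjusted p = 0.0876, limma). The double KO had 4.36 CPM of Lifr.

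No gene passed the threshold of adjusted p under 0.07 in the fit of the 6 clones (limma on log2(CPM + 0.1), 0.0% of 12540 genes). The lowest adjusted p was 0.176. At an unadjusted p under 0.05, 2228 genes (17.8%) differed, 1719 of them higher and 509 lower in FAM3C KO. When the 4 shPCBP1 lines entered the fit as well and added to the estimate of the spread, 1062 genes (8.47%) passed, 877 higher (6.99%) and 185 lower (1.48%) in FAM3C KO. In earlier results of these data the LIFR KO clones spread more than the shPCBP1 lines. The 3-group fit can therefore understate the error of this contrast, here and for the single genes below. With the GC correction in that 3-group fit, 47 genes were higher (0.375% of 12522) and 34 lower (0.272%). The groups did not overlap for 2023 genes higher in FAM3C KO (16.1%) and 845 lower (6.74%), and after the GC correction for 1220 (9.74%) and 1421 (11.3%).

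Of the 304 separated genes, 261 were higher in FAM3C KO (2.08% of the genes tested) and 43 were lower (0.343%). Only 70 of the 261 (0.558% of the genes tested) and 28 of the 43 (0.223%) were separated both before and after the GC correction, and the examples of the classes are drawn from these 98 genes unless stated. The median difference of the 70 genes was 2.01 (log2) and that of the 28 genes was −1.62. At the threshold of the rule, Abi3 at 1.01 and Casp12 at −1.01 were just inside, and Cyb5r3 at 1.00 and Hells at −0.99 were just outside. In the 3-group fit 48 of the 70 and 14 of the 28 passed, and in the GC-corrected 3-group fit 10 and 4 passed. These fits use the same values as the rule, so their counts add no support for it. The same holds for the p-values given for separated genes below. Those from the fit without LIFR KO 3 also rest on LIFR KO 1 and 2 alone for that group.

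The separated genes were sorted by their position relative to the 4 shPCBP1 lines. A FAM3C-side gene moved at least 2-fold in FAM3C KO with all clones beyond all shPCBP1 lines and stayed within 1.5-fold in LIFR KO, and a LIFR-side gene did the reverse. An opposite gene moved at least 1.5-fold in both knockouts in opposite directions, and a graded gene did so in the same direction. Among the 261 genes higher in FAM3C KO there were 30 FAM3C-side, 48 LIFR-side, 61 opposite and 9 graded genes, and 113 fitted no class. Among the 43 lower genes these numbers were 14, 3, 6, 2 and 18. Within the 70 genes that also held after the GC correction, 13 were FAM3C-side, 8 LIFR-side, 34 opposite, 4 graded and 11 unresolved. Within the 28 lower genes there were 11 FAM3C-side, 0 LIFR-side, 5 opposite, 1 graded and 11 unresolved. The classes compare both knockouts with the same control lines. They were set on the deposited values and were not set again for the 70 and 28 genes, for which only the separation was repeated after the GC correction. With separation and class both taken from GC-corrected values, 34 genes were FAM3C-side and 9 were LIFR-side.

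**Figure D2:**
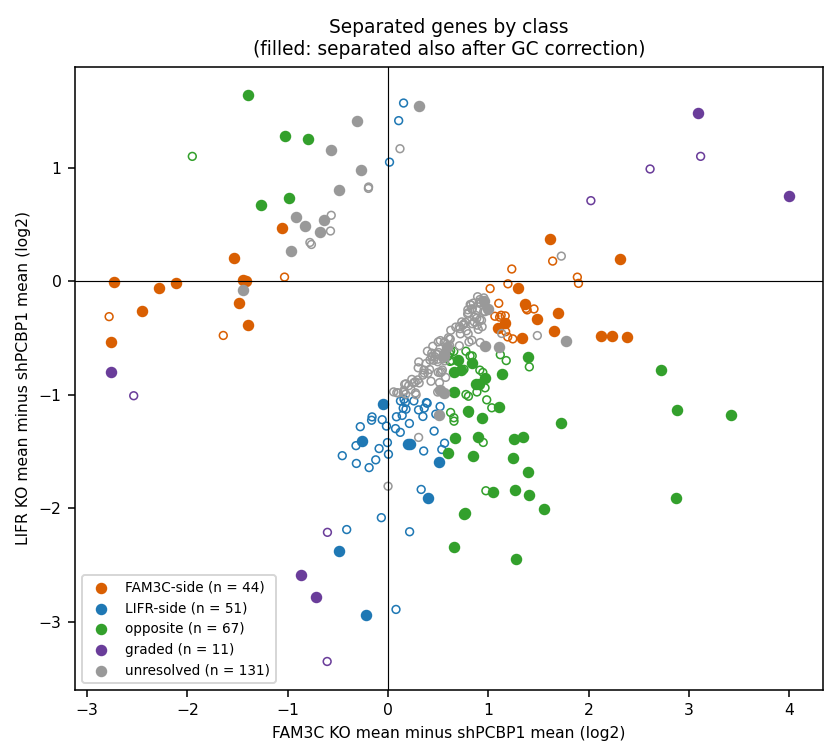
Each point is a separated gene, placed by its FAM3C KO mean minus the shPCBP1 mean (x axis, log2) and its LIFR KO mean minus the shPCBP1 mean (y axis, log2), colored by class. Filled points were separated also after the GC correction. Of the 51 LIFR-side genes, 8 are filled, and of the 44 FAM3C-side genes, 24 are.

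Genes on the FAM3C side included enzymes, signaling proteins and matrix components. Cth encodes cystathionine gamma-lyase, the enzyme that releases cysteine at the end of the transsulfuration pathway (chr3:157894248-157925077, minus strand, GRCm38). It was at 27.6, 20 and 26.6 CPM in FAM3C KO 1 to 3, at 6.92, 5.66 and 8.40 CPM in LIFR KO 1 to 3, and at 7.06 to 10.3 CPM in the shPCBP1 lines. The log2 difference was 1.81 (SE 0.21, adjusted p = 0.176, limma), 1.92 after the GC correction, and adjusted p = 0.0107 in the 3-group fit. All 3 FAM3C KO clones stood apart from every LIFR KO and shPCBP1 library, and the double KO, at 26.7 CPM, lay among them. Without LIFR KO 3, Cth passed the test at 1.95 (adjusted p = 0.0126, limma). Rab30, a small GTPase of the Golgi (chr7:92741603-92844535, plus strand), was at 47.2, 14.4 and 54.9 CPM in FAM3C KO and at 3.86, 5.03 and 4.67 CPM in LIFR KO. Its log2 difference was 2.87 (SE 0.48; adjusted p = 0.199, and 0.0361 in the 3-group fit, limma) and 2.90 without LIFR KO 3 (adjusted p = 0.0611). The double KO had the highest Rab30 value, 92.3 CPM, and FAM3C KO 2 lay just above the unaltered shPCBP1 line at 13.5 CPM.

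Low-abundance genes of this class were Gpr141, an orphan G protein-coupled receptor, Padi3, a peptidylarginine deiminase, and P2rx3, an ATP-gated ion channel. Gpr141 was at 1.64, 2.16 and 1.69 CPM in FAM3C KO and at 0.322, 0.291 and 0.429 CPM in LIFR KO. Padi3 was at 3.37, 4.48 and 3.42 CPM against 0.966, 0.582 and 1.16 CPM, and the double KO lay between the groups at 2.01 CPM. P2rx3 was at 1.68, 0.760 and 1.73 CPM against 0.376, 0.166 and 0.386 CPM. Gpr141 and Padi3 reached adjusted p = 0.0312 and 0.0240 in the 3-group fit (limma), and P2rx3 reached 0.0722. Arap3, which encodes a GTPase-activating protein, was at 4.21, 21.8 and 6.95 CPM in FAM3C KO and at 1.07, 0.79 and 2.14 CPM in LIFR KO. Its highest value came from FAM3C KO 2, in which chromosome 18, where the gene lies, was higher as a whole.

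Lower on the FAM3C side were Lamb1, Pls1, Lmx1a, Raet1e, Casp4 and Lrrk2. Lamb1, the beta-1 chain of basement membrane laminin, was at 2.26, 5.52 and 1.54 CPM in FAM3C KO, at 23.3, 9.94 and 7.25 CPM in LIFR KO and at 11.1 to 12.8 CPM in the shPCBP1 lines. Its log2 difference was −2.10 (SE 0.57; adjusted p = 0.199, and 0.0407 in the 3-group fit, limma) and −2.46 without LIFR KO 3 (adjusted p = 0.0989). The double KO was lower still at 0.328 CPM. The LIFR KO clones lay on both sides of the shPCBP1 lines for this gene. Pls1, an actin-bundling plastin of microvilli, was at 2.17, 0.440 and 2.96 CPM in FAM3C KO and at 7.08, 8.82 and 5.87 CPM in LIFR KO. Here the double KO, at 7.03 CPM, was at the LIFR KO level.

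Lmx1a, a LIM homeodomain transcription factor, was at 2.04, 0.240 and 0.0768 CPM in FAM3C KO against 2.84, 5.41 and 2.19 CPM in LIFR KO. Raet1e, a ligand of the NKG2D receptor of natural killer cells, was at 1.11, 0.920 and 0.192 CPM against 2.98, 4.71 and 2.21 CPM. Both were near zero in the double KO (0.0468 and 0.141 CPM). Casp4, an inflammatory caspase, was at 0.797, 0.520 and 0.154 CPM against 1.13, 1.66 and 2.32 CPM. Lrrk2, which encodes a large protein kinase, was at 24.5, 0.480 and 24.3 CPM in FAM3C KO and at 32.3, 40.7 and 26.9 CPM in LIFR KO, so 1 clone carried its mean difference of −2.23 (SE 1.35). It lies on distal chromosome 15.

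Coq3, a methyltransferase of coenzyme Q synthesis, was graded, with both knockouts below the shPCBP1 lines. It was named after its values were seen. FAM3C KO had 1.51, 1.52 and 1.15 CPM, LIFR KO had 7.40, 6.78 and 3.65 CPM, the shPCBP1 lines had 7.23 to 13.4 CPM and the double KO had 0.703 CPM. The log2 difference was −1.96 (SE 0.32; adjusted p = 0.199, and 0.0245 in the 3-group fit, limma) and −2.28 without LIFR KO 3 (adjusted p = 0.0128). LIFR KO 1 alone reached into the shPCBP1 range.

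Genes on the LIFR side were mostly lower in LIFR KO. Kcnj2, an inwardly rectifying potassium channel, was at 2.17, 1.24 and 2.73 CPM in FAM3C KO, at 0.376, 0.0416 and 0.343 CPM in LIFR KO and at 1.41 to 3.33 CPM in the shPCBP1 lines. The log2 difference was 2.72 (SE 0.57; adjusted p = 0.199, and 0.0361 in the 3-group fit, limma) and 2.98 without LIFR KO 3 (adjusted p = 0.0686), and the double KO was at 0.656 CPM. All 3 LIFR KO clones lay below every other library. Atf5, a stress-induced bZIP transcription factor, was at 57.3, 26.3 and 51.3 CPM in FAM3C KO and at 11.1, 7.82 and 11.1 CPM in LIFR KO. Its difference of 2.09 (SE 0.32) became 1.42 after the GC correction, and it passed in the 3-group fit (adjusted p = 0.0313, limma) and without LIFR KO 3 (2.18, adjusted p = 0.0402).

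Sting1, the adaptor of cytosolic DNA sensing, was at 13.5, 35.0 and 16.7 CPM in FAM3C KO, at 6.33, 5.37 and 7.55 CPM in LIFR KO and at 14.3 to 19.9 CPM in the shPCBP1 lines. Its 3-group adjusted p was 0.0361 (limma), and its highest value again came from FAM3C KO 2 on chromosome 18. The unnamed gene 1700020L24Rik was at 2.66, 0.680 and 4.14 CPM against 0.560, 0.258 and 0.215 CPM. Mmp28, the matrix metalloproteinase epilysin, was at 20.3, 4.80 and 26.1 CPM against 2.50, 1.45 and 4.12 CPM. Nrtn, the neurotrophic factor neurturin, was at 2.97, 2.48 and 2.65 CPM against 0.912, 0.458 and 0.515 CPM. Neither Mmp28 nor Nrtn was separated after the GC correction, and the Nrtn difference moved from 1.99 to 0.81. None of the genes of this class that were higher in LIFR KO was separated after that correction. As deposited, these included Gm10717 and Gm10719. Gm10717 was at 3.43, 4.70 and 6.60 CPM in LIFR KO against 1.15, 2.64 and 2.07 CPM in FAM3C KO. Gm10717 and Gm10719 are gene models with similar names that both lie on chromosome 9, and whether they share reads was not tested.

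**Figure D3:**
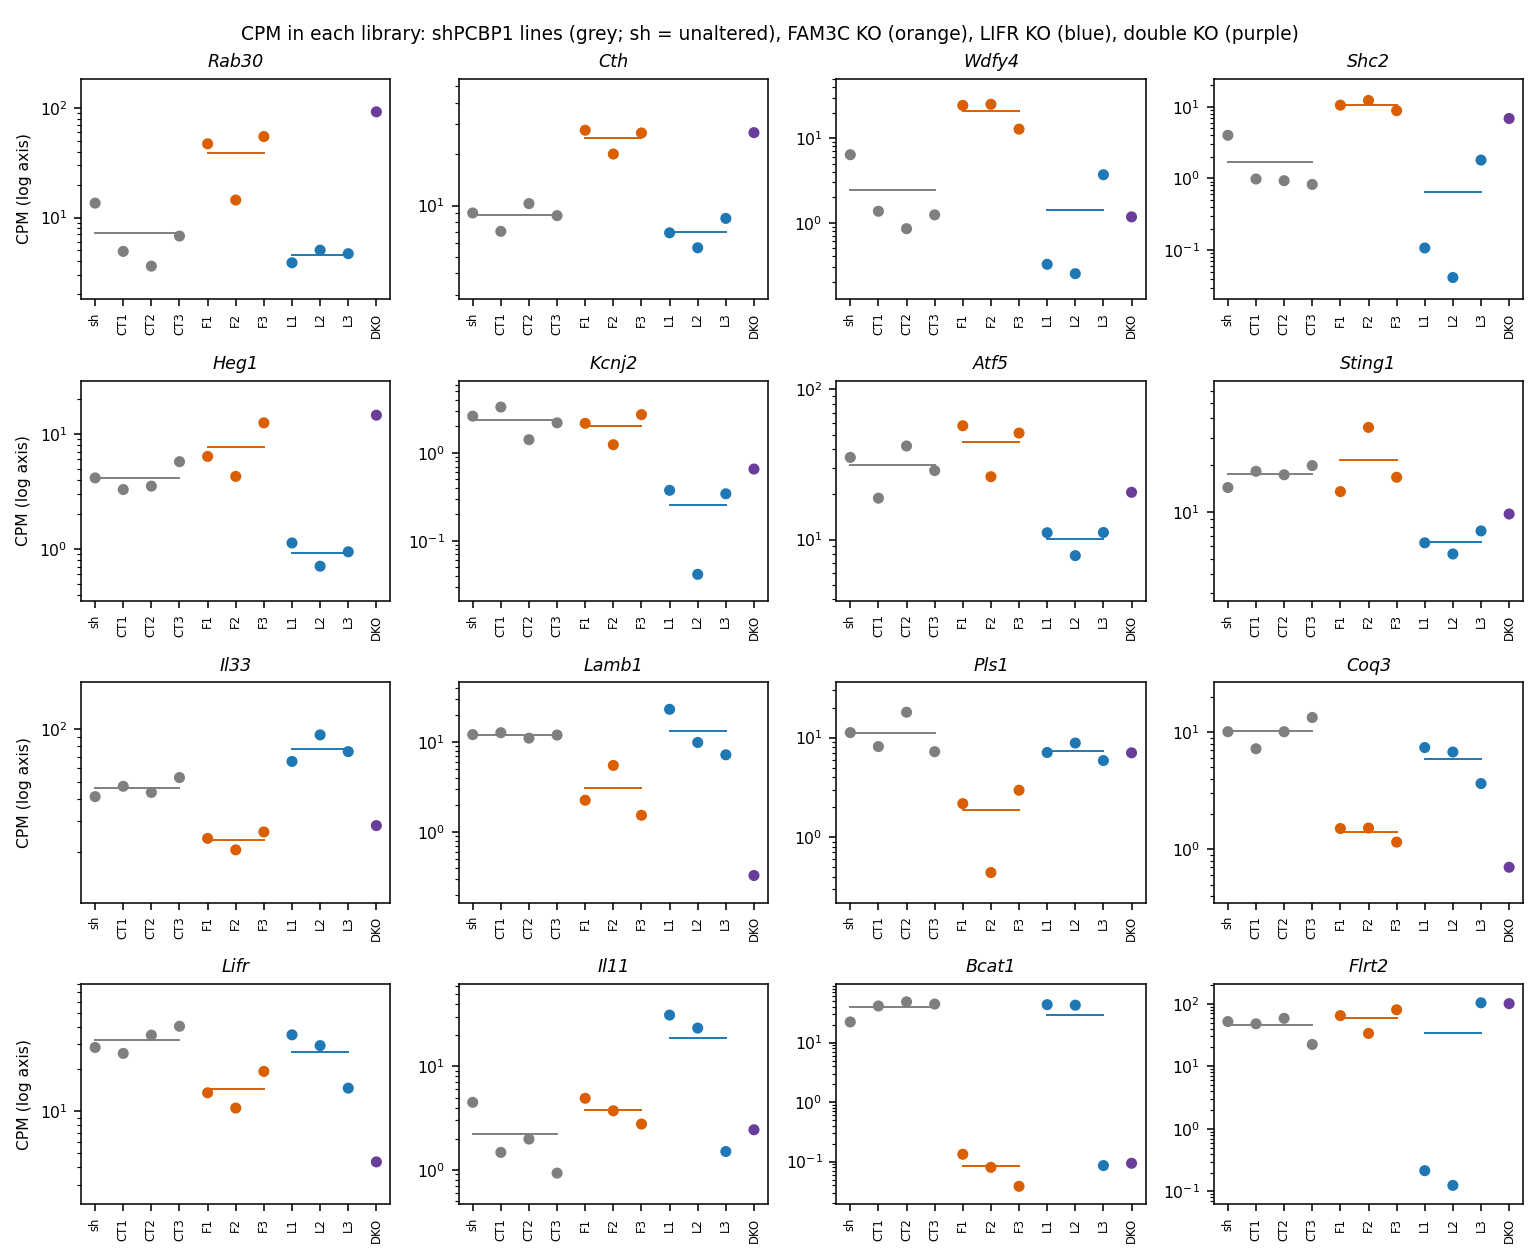
CPM (log axis) of 16 genes in each of 11 libraries, with points for the shPCBP1 lines (grey), FAM3C KO (orange), LIFR KO (blue) and the double KO (purple) and lines at the group means. For Cth and Il33 the 3 orange and 3 blue points stand clear of each other, while for Bcat1, Flrt2 and Il11 the point of LIFR KO 3 lies with the FAM3C KO clones.

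Il33 had the lowest adjusted p of all genes tested in the 3-group fit and belonged to the opposite class. It encodes a nuclear cytokine of the interleukin-1 family that is released by damaged epithelial cells (chr19:29925114-29960718, plus strand). FAM3C KO 1 to 3 had 23.8, 20.5 and 25.9 CPM, LIFR KO 1 to 3 had 65.7, 93.1 and 74.7 CPM, and the shPCBP1 lines had 41.3 to 53.1 CPM. All FAM3C KO clones were thus below and all LIFR KO clones above the 4 shPCBP1 lines. The log2 difference was −1.72 (SE 0.17; adjusted p = 0.176, and 0.00477 in the 3-group fit, limma) and −1.54 after the GC correction. Without LIFR KO 3 it was −1.74 (adjusted p = 0.0166, limma). The double KO, at 28.2 CPM, was near the FAM3C KO clones. Il33 lies on chromosome 19, where LIFR KO 1 and 2 had median differences from shPCBP1 of 0.17 and 0.21 (GC corrected), while LIFR KO 3 had −0.04.

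The largest differences in the opposite class were in Shc2 and Wdfy4. Shc2, an adaptor of receptor tyrosine kinases, was at 10.5, 12.2 and 8.80 CPM in FAM3C KO and at 0.107, 0.0416 and 1.80 CPM in LIFR KO. The 3 CT clones lay between 0.825 and 0.981 CPM, the unaltered line was at 3.99 CPM and the double KO at 6.84 CPM. Its log2 difference was 4.78 (SE 0.90; adjusted p = 0.199, and 0.0350 in the 3-group fit, limma) and 5.94 without LIFR KO 3 (adjusted p = 0.00124). Wdfy4, best known from antigen cross-presentation by dendritic cells, was at 24.4, 25.1 and 12.8 CPM against 0.322, 0.250 and 3.69 CPM. Its difference was 4.60 (SE 0.87) and 5.70 without LIFR KO 3 (adjusted p = 0.00203, limma), and the double KO lay with the shPCBP1 lines at 1.17 CPM. In both genes LIFR KO 3 was the LIFR KO library nearest to FAM3C KO.

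Elfn2, a leucine-rich repeat membrane protein, was at 3.68, 2.08 and 2.00 CPM in FAM3C KO, at 0.107, 0.0832 and 0.214 CPM in LIFR KO and at 0.235 to 0.378 CPM in the shPCBP1 lines, a difference of 3.50 (SE 0.41; 3-group adjusted p = 0.0107, limma). Its double KO value of 0.281 CPM was at the shPCBP1 level. The gene lies on chromosome 15, whose distal part was lower as a whole in LIFR KO 1 and 2. Aqp9, a channel for water and glycerol, was at 1.90, 0.960 and 1.42 CPM against 0.107, 0.0832 and 0.0429 CPM, with a 3-group adjusted p of 0.0240 (limma). Heg1, a transmembrane protein of cell junctions, was at 6.38, 4.27 and 12.5 CPM against 1.13, 0.707 and 0.943 CPM, and the double KO was highest at 14.6 CPM. Fhod3, an actin-assembling formin on chromosome 18, was at 3.10, 10.8 and 5.19 CPM against 0.322, 0.125 and 0.729 CPM, but the shPCBP1 lines themselves ran from 0.525 to 6.23 CPM. These 4 genes were low in all 3 LIFR KO clones, and without LIFR KO 3 Elfn2 (3.73, adjusted p = 0.0113), Aqp9 (2.92, 0.0268), Heg1 (2.83, 0.0402) and Fhod3 (4.21, 0.0238) passed (limma).

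For Plcb1, a phospholipase C of G protein signaling, all 3 LIFR KO libraries were listed at their lowest value, which stands in place of 0, while FAM3C KO had 0.310, 1.84 and 1.88 CPM. Phyhipl was listed at the lowest value in all 3 FAM3C KO libraries and had 1.5, 0.650 and 1.20 CPM in LIFR KO. No fold is given for either gene, and the shPCBP1 lines ranged from 0.162 to 3.90 CPM for Plcb1 and from the lowest value to 1.56 CPM for Phyhipl. Single libraries were at their lowest value in other genes as well, among them LIFR KO 2 for Shc2 and Kcnj2 and LIFR KO 3 for Aqp9. Of genes described below, this was so of FAM3C KO 3 for Bcat1, LIFR KO 2 for Des, and LIFR KO 1 and 2 for Unc5c. The size of their log2 differences thus depends on the 0.1 CPM added. Fry, a scaffold protein of cell polarity, was at 1.11, 4.68 and 0.538 CPM in FAM3C KO against 7.35, 5.20 and 6.52 CPM. Zdhhc15, a palmitoyltransferase, was at 14.5, 13.6 and 0.961 CPM against 16.8, 22.9 and 30.7 CPM, so that FAM3C KO 3 alone was low. The double KO, at 1.26 CPM, was low as well.

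Among IL-6 family ligands and FAM3 proteins, 6 of 11 listed genes were tested, with a median difference of 0.13 against 0.14 over all genes, and none passed in either fit. Lif, the ligand of LIFR, was at 59.2, 76.9 and 61.6 CPM in FAM3C KO and at 48.2, 35.1 and 53.6 CPM in LIFR KO, without overlap (0.54, SE 0.20, adjusted p = 0.239, limma). Clcf1, a ligand of the CNTF receptor, was at 158, 131 and 149 CPM against 144, 80.8 and 98.4 CPM. Cntf ranged from 5.45 to 7.53 CPM and Fam3a, a relative of FAM3C, from 4.82 to 9.22 CPM over the 6 clones, with overlapping groups. Il11, a cytokine that also signals through gp130, gave 31.4 and 23.5 CPM in LIFR KO 1 and 2 but 1.5 CPM in LIFR KO 3, beside 4.92, 3.72 and 2.77 CPM in FAM3C KO. The shPCBP1 lines had 0.928 to 4.49 CPM of Il11 and the double KO had 2.44 CPM. Its difference was −1.48 (SE 1.04, adjusted p = 0.421, limma) over the 6 clones and −2.84 without LIFR KO 3 (SE 0.29, adjusted p = 0.00961).

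Of 8 receptors listed, 4 were tested, with a median of 0.24, and none passed. Il6st was at 129, 126 and 132 CPM in FAM3C KO and at 105, 89.1 and 133 CPM in LIFR KO (exact permutation p = 0.4). Il6ra, the interleukin-6 receptor, was at 12.5, 11.2 and 15.1 CPM against 10.7, 10.2 and 9.56 CPM, without overlap but with a difference of 0.33 (SE 0.17, adjusted p = 0.330, limma). Il11ra1 overlapped, at 2.57 to 3.16 CPM against 1.89 to 2.90 CPM, and its direction turned after the GC correction (0.21 before, −0.15 after). Osmr, the oncostatin M receptor subunit, did not exceed 0.640 CPM in any library.

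Downstream, 22 JAK-STAT kinases, factors and inhibitors had a median difference of 0.22, and 0.01 after the GC correction. Among them 2 passed in the 3-group fit, beside 8.47% of all genes, and 0 after the GC correction. Both were separated: Ptpn6 and Socs1, inhibitors of cytokine signaling. Ptpn6, the phosphatase SHP-1, was at 3.55, 5.32 and 4.43 CPM in FAM3C KO against 1.97, 0.737 and 1.91 CPM in LIFR KO (1.56, SE 0.40; 3-group adjusted p = 0.0426, limma), and it did not pass without LIFR KO 3 (1.76, adjusted p = 0.10). Socs1 was at 2.66, 2.28 and 2.69 CPM against 1.39, 0.707 and 0.600 CPM, and was not separated after the GC correction. Stat3 was at 61.0, 55.9 and 63.1 CPM in FAM3C KO and at 67.2, 48.3 and 44.9 CPM in LIFR KO, and Socs3 was at 104, 79.4 and 99.3 CPM against 114, 59.9 and 54.2 CPM (exact permutation p = 0.4 for each). In both genes LIFR KO 1 was above all FAM3C KO clones and LIFR KO 2 and 3 were below them, and the direction turned after the GC correction (Stat3 0.19 to −0.08, Socs3 0.38 to −0.16). Socs2, a feedback inhibitor named after its values were seen, was at 16.7, 12.8 and 19.4 CPM against 31.9, 32.9 and 19.5 CPM.

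Of the STAT3 response genes, 25 were tested. Their median difference was 0.54, and 0.08 after the GC correction. Groups did not overlap for 9 genes, all higher in FAM3C KO, beside 16.1% of all genes. After the correction this held for 6 higher and 2 lower genes, beside 9.74% and 11.3% of all genes. In the 3-group fit 5 passed, Cebpd, Irf1, Klf4, Pim1 and Vegfa, all higher (6.99% of all genes), and 1 higher after the correction (0.375%). Vegfa, the endothelial growth factor, was the single separated member, though not after the correction, at 194, 200 and 235 CPM against 128, 86.4 and 89.1 CPM (1.07, SE 0.18; 3-group adjusted p = 0.0313, limma). Klf4, a transcription factor of epithelial differentiation named after its values were seen, was at 83.5, 72.0 and 84.2 CPM against 38.6, 34.2 and 50.2 CPM. It passed without LIFR KO 3 (1.13, adjusted p = 0.0228, limma), and its FAM3C KO values were within or just below the shPCBP1 range of 73.7 to 112 CPM.

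Genes of amino acid stress had the highest median of the 23 lists. ATF4 is the transcription factor that is translated when amino acids run short or the endoplasmic reticulum is stressed, and it induces serine synthesis, transsulfuration and amino acid import. All 27 listed genes were tested, 24 were higher in FAM3C KO before and 24 after the GC correction, and the median difference was 0.64 before it and 0.38 after it, beside 0.14 and 0.00 over all genes. Against LIFR KO 1, 2 and 3 the GC-corrected medians were 0.34, 0.35 and 0.45. Groups did not overlap for 15 genes before and 14 after the correction, all higher in FAM3C KO, with 16.1% and 9.74% over all genes. In the 3-group fit 10 passed (limma), and 2 after the GC correction, beside 6.99% and 0.375% over all genes. The members below 0 before the correction were Bcat1, Nupr1 and Slc38a2. After it they were Bcat1, Nupr1 and Psat1, with Slc38a2 at 0.06 and Psat1 at −0.08.

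Atf4 itself was at 488, 387 and 448 CPM in FAM3C KO, at 276, 210 and 324 CPM in LIFR KO and at 306 to 395 CPM in the shPCBP1 lines. The difference was 0.73 (SE 0.19; 3-group adjusted p = 0.0429, limma). After the GC correction it was 0.70, 0.43 and −0.15 against LIFR KO 1, 2 and 3. The gene lies on distal chromosome 15, which was lower as a whole in LIFR KO 1 and 2. Trib3, a pseudokinase induced by ATF4, was at 58.9, 29.4 and 53.5 CPM against 17.4, 11.8 and 15.1 CPM (1.63, SE 0.29; 3-group adjusted p = 0.0362). Chac1, which degrades glutathione, was at 79.6, 44.6 and 69.4 CPM against 33, 20.2 and 23.3 CPM, and was not separated after the GC correction. FAM3C KO 2 was the lowest FAM3C KO clone in both genes and lay within the shPCBP1 range, which was 19.4 to 40.9 CPM for Trib3 and 32.0 to 54.2 CPM for Chac1.

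The smaller changes in this group included Pck2, the mitochondrial phosphoenolpyruvate carboxykinase, Mthfd2, an enzyme of mitochondrial folate metabolism, and Asns, asparagine synthetase. Pck2 was at 116, 71.8 and 104 CPM in FAM3C KO against 59.8, 48.5 and 41.0 CPM in LIFR KO. Mthfd2 was at 126, 114 and 136 CPM against 93.8, 76.2 and 80.1 CPM. Both passed in the 3-group fit (adjusted p = 0.0362 and 0.0383, limma). Asns was at 120, 97.8 and 126 CPM against 88.1, 90.9 and 81.6 CPM, without overlap, and did not pass (3-group adjusted p = 0.0916). The plot of the ATF4 list shows the members gene by gene.

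**Figure D4:**
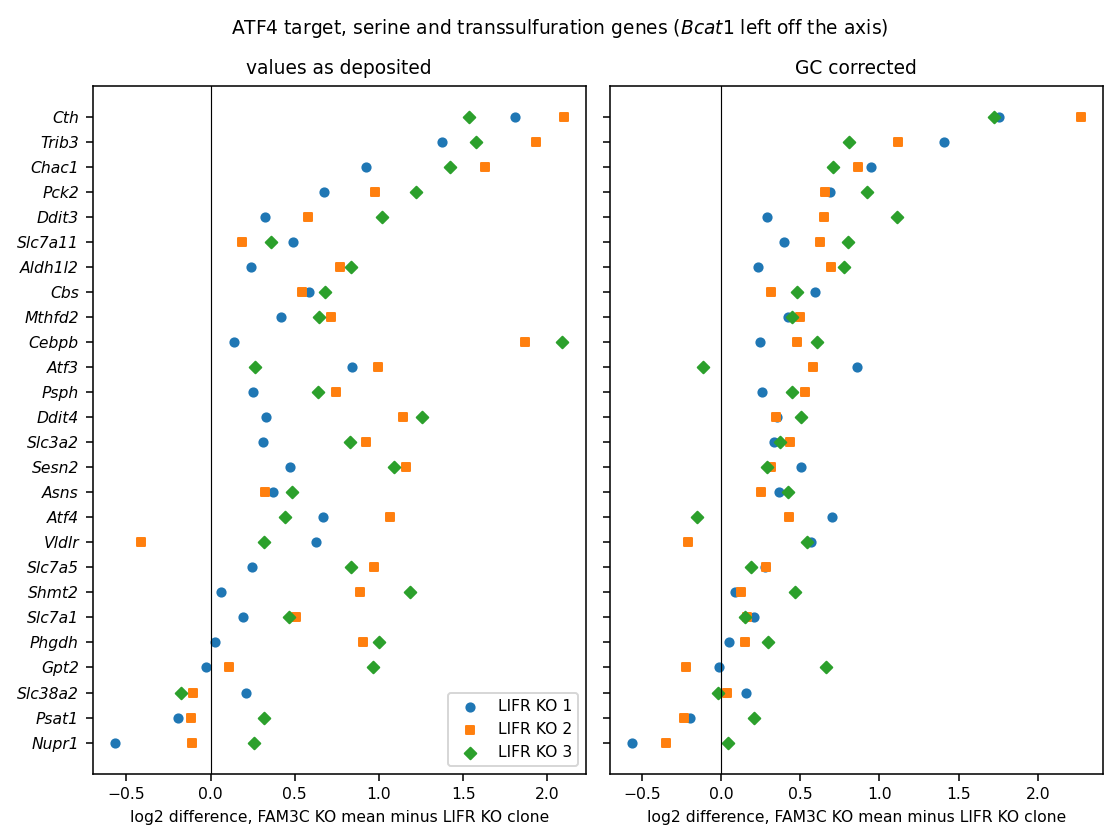
Log2 difference between the FAM3C KO mean and each LIFR KO clone (circles, squares and diamonds for clones 1, 2 and 3) for 26 genes of ATF4, serine and transsulfuration metabolism, as deposited (left) and after the GC correction (right). Cth lies farthest to the right against all 3 clones after the correction, and Bcat1, at −7.92 and −7.89 against LIFR KO 1 and 2, is left off the axis.

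Guidance molecules formed another list. Of 48 Eph receptors, ephrins, semaphorins and plexins tested, the median difference was 0.41, and 0.12 after the GC correction, and 10 passed higher and 1 lower in the 3-group fit, beside 6.99% and 1.48% of all genes. After the correction 0 passed in either direction. Separated members were Sema6b, Plxnd1, Unc5c, Ephb6, Sema4a, Plxna3 and Plxna4, of which Unc5c alone held after the correction. Sema6b, a transmembrane semaphorin, was at 15.8, 21.9 and 15.7 CPM in FAM3C KO against 6.76, 4.33 and 5.4 CPM in LIFR KO (1.68, SE 0.23; 3-group adjusted p = 0.0348, limma). Plxnd1, a semaphorin receptor, was at 87.3, 63.0 and 84.1 CPM against 34.0, 12.6 and 36.4 CPM. Unc5c, a netrin receptor, was at 0.841, 0.720 and 1.72 CPM against 0.0536, 0.0416 and 0.472 CPM, with LIFR KO 1 and 2 at the lowest value of their library. Ephb6, an Eph receptor without kinase activity, was at 2.61, 2.24 and 4.03 CPM against 0.483, 1.5 and 0.600 CPM. The one lower gene that passed was Sema3e, a secreted semaphorin, at 106, 99.0 and 111 CPM against 177, 214 and 146 CPM (−0.75, SE 0.16; 3-group adjusted p = 0.0313). It was named after its values were seen.

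Interferon-induced genes and antigen presentation genes had a median of 0.06 over 28 tested, and −0.12 after the GC correction. In the 3-group fit 1 passed higher and 3 lower in FAM3C KO, beside 6.99% and 1.48% of all genes. After the correction 0 passed, beside 0.375% and 0.272% of all genes. Ifit3b was at 0.531, 0.360 and 0.615 CPM in FAM3C KO against 2.41, 1.04 and 1.63 CPM in LIFR KO (−1.53, SE 0.40; 3-group adjusted p = 0.0386, limma). Ifit3, its near-identical neighbor, was at 1.24, 0.520 and 0.961 CPM against 2.52, 1.58 and 1.93 CPM, and reads shared by both copies could be split between them. Ifit2, from the same antiviral family and named after its values were seen, was at 24.9, 24.3 and 29.9 CPM against 37.9, 46.9 and 34.1 CPM (3-group adjusted p = 0.0437). These 3 lie on chromosome 19 with Il33. Oasl1, a sensor of double-stranded RNA, went the other way, at 0.886, 2.28 and 1.08 CPM against 0.322, 0.166 and 0.643 CPM, and did not pass. It was not separated after the GC correction, unlike Ifit3b and Ifit3.

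Chemokines and cytokines had a median of 0.34 over 22 tested, and Il33 was the only one that passed in the 3-group fit, beside 8.47% of all genes. The separated genes of this and the next paragraph other than Il33 (Il34, Eno1, P4ha2, Pdgfb, Igfbp3, Ltbp4, Dhh and, as above, Vegfa) were not separated after the GC correction. Il34, a ligand of the CSF1 receptor, was at 2.44, 1.72 and 1.65 CPM against 0.590, 0.832 and 0.986 CPM. Glycolysis and hypoxia genes had a median of 0.42 over 31, and 0.15 after the GC correction, with 6 passing, all higher (6.99% of all genes). After the correction 2 passed, both higher (0.375% of all genes). Groups then did not overlap for 8 higher and 2 lower genes, beside 9.74% and 11.3% of all genes. Eno1, the glycolytic enolase, was at 471, 509 and 459 CPM against 220, 133 and 298 CPM (1.22, SE 0.28; 3-group adjusted p = 0.0383, limma), and it lies on distal chromosome 4. P4ha2, a subunit of collagen prolyl hydroxylase, was at 7.79, 6.80 and 7.57 CPM against 2.90, 3.54 and 3.95 CPM. Hk2, the hexokinase named after its values were seen, was at 128, 146 and 133 CPM against 102, 67.7 and 78.7 CPM.

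Among 31 growth factor receptors and ligands the median was 0.25, and 5 passed higher and 1 lower (6.99% and 1.48% of all genes). After the GC correction 1 and 0 passed (0.375% and 0.272% of all genes). Beside Vegfa, Pdgfb and Igfbp3 were separated as deposited. Pdgfb was at 138, 139 and 142 CPM against 64.4, 32.1 and 83.8 CPM, and Igfbp3, a carrier of insulin-like growth factors, at 65.5, 134 and 71.5 CPM against 48.0, 37.3 and 33.1 CPM. In the TGF-beta and BMP pathway the median was 0.23 over 37, and 7 passed, all higher (6.99% of all genes). After the GC correction the median was 0.05 and 0 passed. Ltbp4, which holds latent TGF-beta in the matrix, was separated as deposited at 46.1, 36.6 and 51.6 CPM against 12.2, 5.49 and 14.4 CPM (2.15, SE 0.36; 3-group adjusted p = 0.0240, limma). Among 31 Wnt and Hedgehog genes the median was 0.21 with 1 passing, higher in FAM3C KO (6.99% of all genes). The ligand Dhh was separated as deposited at 1.19, 1.57 and 0.761 CPM against 0.377, 0.208 and 0.487 CPM.

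In the other lists at most 3 genes passed in the 3-group fit, beside 6.99% higher and 1.48% lower over all genes. The median was 0.15 over 10 EMT transcription factors, with 0 passing, and 0.16 over 18 epithelial adhesion and keratin genes, with 1 passing. It was 0.25 over 14 mesenchymal and contractile genes, of which 1 passed, and 0.22 over 14 mammary lineage genes, of which 2 passed higher and 1 lower. Des, the muscle intermediate filament desmin, was the separated mesenchymal gene, as deposited, at 0.841, 2.08 and 0.538 CPM against 0.536, 0.0416 and 0.429 CPM. Collagens and laminins had a median of 0.27 over 27, with 1 passing higher and 1 lower, the latter being Lamb1. Matrix proteases and inhibitors had a median of 0.40 over 27, with 2 passing higher. Des, Adamts7 and Mmp23 were not separated after the GC correction. Adamts7, a secreted metalloproteinase, was at 4.10, 4.39 and 5.74 CPM against 0.919, 0.847 and 2.13 CPM, and Mmp23 at 2.17, 1.68 and 1.58 CPM against 1.13, 0.458 and 0.943 CPM. Hox genes (median 0.33 over 18) and cholesterol synthesis genes (median −0.01 over 24) had 0 passing. Cell cycle genes had a median of 0.11 over 39, with 1 passing in each direction. After the GC correction 3 of the 24 cholesterol synthesis genes were higher in FAM3C KO. Their median was −0.19 and 1 passed lower, beside 0.272% of all genes. Groups then did not overlap for 0 higher and 8 lower cholesterol synthesis genes, beside 9.74% and 11.3% of all genes. For collagens and laminins these numbers were 0 and 8, and for cell cycle genes 2 and 10. The 13 mitochondrially encoded mRNAs had a median of −0.52, and of 0.10, −0.92 and −0.80 against LIFR KO 1, 2 and 3.

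Leaving out the library labelled LIFR KO 3 gave a larger contrast, and leaving out LIFR KO 1 gave a still larger one. Without LIFR KO 1, 5835 genes passed at adjusted p under 0.07 (limma) and 991 were separated. Without LIFR KO 2 these numbers were 0 and 237. The contrast without LIFR KO 3 is described here. Without LIFR KO 3, 341 genes were higher (2.72%) and 119 lower (0.949%) in FAM3C KO at adjusted p under 0.07 (limma). The separation rule then held for 618 higher (4.93%) and 197 lower genes (1.57%), which included 254 of the 261 and 39 of the 43. With the GC correction, LIFR KO 3 lay nearer to FAM3C KO than to LIFR KO 1 and 2 in 532 of 615 of the higher genes (86.5%) and 162 of 197 of the lower genes (82.2%). These genes were chosen for the distance of LIFR KO 1 and 2 from FAM3C KO, with LIFR KO 3 left out. That choice by itself favors FAM3C KO for the library left out. No share over all genes was taken beside these counts, so no conclusion about LIFR KO 3 is drawn from them. Without LIFR KO 3 the medians of the 23 lists lay between −0.40 and 0.50, beside 0.10 over all genes. The ATF4 list had the highest median, 0.50, and 0.38 with the GC correction. The STAT3 response genes had 0.49, and 0.21 with the correction. The median changed sign for cell cycle genes (−0.02), cholesterol synthesis genes (0.03) and the markers of other cell types (−0.12). The genes below were chosen after their values were seen.

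Bcat1, the cytosolic aminotransferase of branched-chain amino acids, was at 43.5 and 42.6 CPM in LIFR KO 1 and 2 and at 22.3 to 48.4 CPM in the shPCBP1 lines. It was at 0.133, 0.0800 and 0.0384 CPM in FAM3C KO, at 0.0858 CPM in LIFR KO 3 and at 0.0937 CPM in the double KO. The log2 difference was −5.29 (SE 1.97, adjusted p = 0.246, limma) with LIFR KO 3 and −7.91 (SE 0.32, adjusted p = 0.000757) without it. Flrt2, a membrane protein of cell adhesion and guidance, went the other way. It was at 0.215 and 0.125 CPM in LIFR KO 1 and 2, at 104 CPM in LIFR KO 3, at 64.7, 33.6 and 80.2 CPM in FAM3C KO and at 22.3 to 58.5 CPM in the shPCBP1 lines. Its difference without LIFR KO 3 was 7.72 (SE 0.40, adjusted p = 0.00124, limma).

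Gli3, a transcription factor of Hedgehog signaling, was at 3.45, 1.60 and 1.61 CPM in FAM3C KO, 35.7 and 26.4 CPM in LIFR KO 1 and 2, and 2.83 CPM in LIFR KO 3. Ddr2, a receptor tyrosine kinase for collagen, was at 180, 139 and 199 CPM in FAM3C KO, 17.9 and 4.66 CPM in LIFR KO 1 and 2, and 177 CPM in LIFR KO 3. The shPCBP1 lines were already spread for Ddr2, with 2.37 and 8.49 CPM in CT 1 and CT 2 and 51.2 and 51.8 CPM in the unaltered line and CT 3. Vegfc, a lymphatic growth factor, was at 5.98, 7.32 and 5.80 CPM in FAM3C KO, 0.107 and 0.998 CPM in LIFR KO 1 and 2, and 5.92 CPM in LIFR KO 3. Il1rn, the antagonist of the interleukin-1 receptor, was at 14.7, 3.32 and 14.9 CPM, 0.483 and 0.832 CPM, and 13.8 CPM in the same order. All 4 passed without LIFR KO 3 (adjusted p = 0.00916, 0.0203, 0.0477 and 0.0560, limma). In each of them LIFR KO 3 was within or next to the FAM3C KO range.

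Part of the separation followed chromosome segments. Chromosomes 4 and 15 each held 43 of the 261 genes higher in FAM3C KO (16.5%), beside 6.22% and 3.88% of the genes tested. Segment borders were set after the values were seen. On chromosome 4 from 150 Mb (75 genes), the GC-corrected median difference from shPCBP1 was 0.86, 0.94 and 0.87 in FAM3C KO 1 to 3, 0.86 in LIFR KO 3 and 0.85 in the double KO, but −0.08 and −0.04 in LIFR KO 1 and 2. The unaltered shPCBP1 line was at 0.36 and the CT clones between −0.15 and −0.09. On chromosome 15 from 60 Mb (355 genes) the median was −0.45 and −0.44 in LIFR KO 1 and 2 and between 0.04 and 0.07 in LIFR KO 3, FAM3C KO and the double KO. Chromosome 18 (336 genes) was at 0.46 in FAM3C KO 2 alone and between −0.03 and 0.03 in the other 10 libraries. The distal segments held 25 and 42 of the 261 genes, of which 1 and 6 were also separated after the GC correction, and chromosome 18 held 15, of which 8 were. Position and knockout cannot be told apart for these genes, and the part of the segments in each gene's difference was not tested. A position is given above for only some of the named genes, so a gene without one can also lie in these segments. Without chromosomes 4 and 15, 175 higher and 37 lower separated genes were left.

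**Figure D5:**
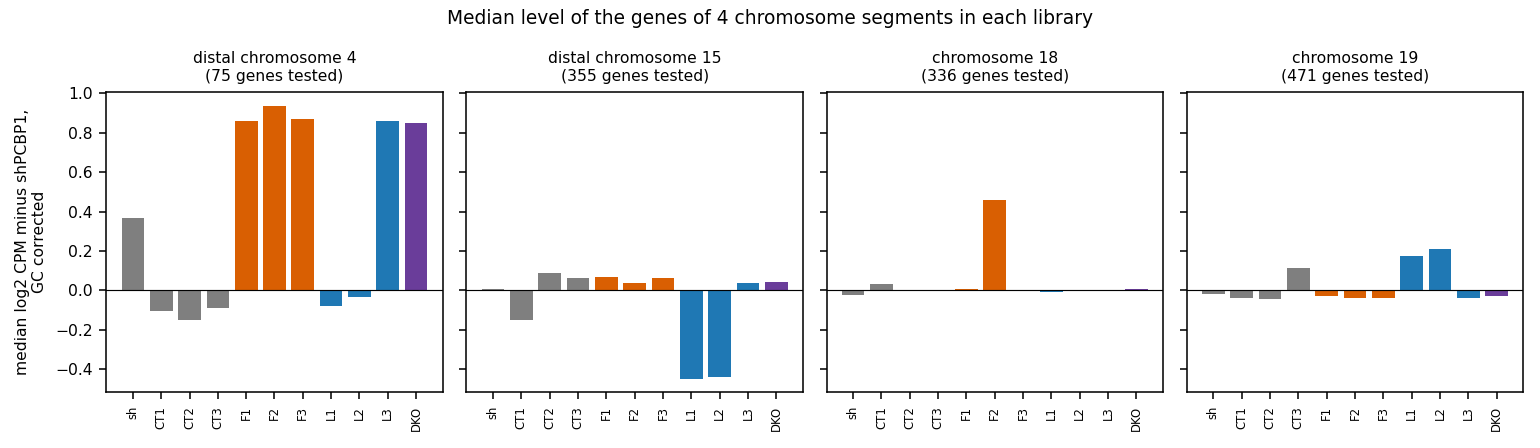
Median difference from the shPCBP1 lines (log2, GC corrected) of the genes of 4 chromosome segments in each of 11 libraries; bars are colored as in the plot of single genes, and each shPCBP1 line is set against the other 3. On distal chromosome 4 the FAM3C KO clones, LIFR KO 3 and the double KO reach 0.85 to 0.94, and on distal chromosome 15 LIFR KO 1 and 2 are at −0.45 and −0.44.

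The double KO was not used by the rule. As deposited it was nearer to the FAM3C KO mean for 116 of the 261 higher genes (44.4%) and 25 of the 43 lower genes (58.1%), beside 27.9% of all genes tested. After the GC correction, it was nearer to FAM3C KO for 52 of the 70 genes (74.3%) and 21 of the 28 genes (75.0%), beside 53.2% of all genes. This is 1 library, with the GC trend and mitochondrial share of LIFR KO 2 and 3 and the distal chromosome 4 level of the FAM3C KO clones.

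The second dataset, of 2 shPCBP1 against 2 control NMuMG samples, was also independent of the rule. At adjusted p under 0.07 and at least 1.5-fold, 16.0% of 11037 genes were higher and 14.3% were lower in shPCBP1 cells (limma). Of the 261 separated genes higher in FAM3C KO, 211 could be tested there, and 59 were higher (28.0%) and 72 lower (34.1%) after PCBP1 knockdown. Of the 43 lower genes 27 could be tested, with 6 higher (22.2%) and 16 lower (59.3%). Among those that also held after the GC correction the numbers were 19 and 19 of 48 and 5 and 12 of 20. Il33 and Cth fell after PCBP1 knockdown by 1.25 and 1.14 (log2, adjusted p = 1.82e-11 and 1.97e-06, limma). Heg1 and Coq3 rose by 4.20 and 3.37 (adjusted p = 4.61e-09 and 3.05e-09). Il11 rose by 4.74 (adjusted p = 2.99e-10).

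STAT factors bind palindromes of the form TTCNNNGAA, and this motif was searched in promoters of 300 bases, from 250 before to 50 after the start site (RefSeq, GRCm38.p6). The motif reads the same on both strands. It was in 825 of 9921 promoters of tested genes (8.32%), in 15 of 189 of the separated genes higher in FAM3C KO (7.94%), in 6 of 37 of the lower genes (16.2%) and in 9 of 74 of those that also held after the GC correction (12.2%). The windows of 3 genes described above are shown with that of Socs3, a known STAT3 target, with the motif in capitals.
Heg1, chr16:33684327-33684351, plus strand: cccgggggTTCCGTGAActcacccg
Plcb1, chr2:134785917-134785941, plus strand: ccatatctTTCCCAGAAagcccccc
Phyhipl, chr10:70592886-70592910, minus strand: cagttgtgTTCTCTGAAgaggagtt
Socs3, chr11:117969504-117969528, minus strand: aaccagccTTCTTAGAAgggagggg
These matches describe letters in the window and no binding was measured here.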

How the data were processed

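Ribosomal RNA was depleted and paired-end directional libraries were sequenced. The authors trimmed the reads, aligned them to GRCm38 with Bowtie2 and quantified genes in Partek Flow, with DESeq2 for their own comparisons. The deposited CPM hold a small value where no read was counted. The lowest CPM was 0.0213 to 0.0624 per library. Depth is not given in the files. For many genes, such as Aqp9, the values were whole multiples of the lowest value of the library, and for others, such as Ptpn6, they were not. Reads were not recovered and no count test was run. The authors' columns of group means and fold changes in the second dataset were not used, and 0 columns of per-sample values were without a sample.

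Log2(CPM + 0.1) values of genes that reached a mean of 0.5 CPM over the 6 clones were compared by limma 3.58.1 (R 4.3.3) with its trend option and Benjamini-Hochberg adjusted p under 0.07. The p-values measure the spread between clones. The fit of the 6 clones was the planned one, and a fit that adds the 4 shPCBP1 lines as a group was an alternative. Others were quantile normalization, rescaling by median ratios, 1 CPM as the pseudocount, further filters and folds, LIFR KO 1 alone, leaving out each clone, a replicate block, and a GC correction (lowess, span 0.3, GC content of the longest transcript). The members and the 23 gene lists were chosen with earlier results of these data known. Scripts were tested on simulated data.

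Genes named were Fam3c, Lifr and the IL-6 family. Among separated genes ranked by the smallest difference of any LIFR KO clone from the FAM3C KO mean, they were the first 8 in each direction, the first 6 of the FAM3C-side and LIFR-side classes in each direction, and up to 4 per gene list. Psat1 and another 21 genes were named after their values were seen. A gene that the rule names is not reported here. Genes were matched to GENCODE M21 by ID, and coordinates are taken from it. Gene starts in the file equalled its starts for only 371 of 13870 matched genes. GC content was known for 12522 of the genes tested. Figures were drawn with matplotlib 3.10.9.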

Additional observations from a re-analysis of the deposited data

Results flagged for a closer look

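Within the 4 shPCBP1 lines, which serve as the reference of the classes, 1 line stood far from the other 3 in 5 of 85 named genes and in 2 of 6 chromosome segments. Chance alone puts about 1 in 20 groups of 4 past the limit used. Lif was at 42.7 CPM and Il6ra at 16.5 CPM in CT 2. Shc2 was at 3.99 CPM in the unaltered line. Fry was at 0.889 CPM in CT 2, and Unc5c at 0.235 CPM in CT 1. The median of distal chromosome 4 was 0.365 (log2, GC corrected) in the unaltered line, and that of chromosome 19 was 0.112 in CT 3. All 4 lines, the outlying one included, entered the reference for the classes of Shc2, Fry and Unc5c.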

How the results depend on the processing

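Calls at adjusted p under 0.07 in the fit of the 6 clones numbered 0, and depended on the libraries and the spread used: 1062 genes (877 higher, 185 lower in FAM3C KO) in the 3-group fit, 81 (47 and 34) in that fit with the GC correction, 7 (6 and 1) without the trend, and 1198 (710 and 488) against LIFR KO 1 alone. Leaving out 1 clone gave 0 to 5835 calls (0 to 4089 higher, 0 to 1746 lower), with 5835 without LIFR KO 1, 460 without LIFR KO 3 and 1 without FAM3C KO 2.

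The 304 separated genes (261 higher, 43 lower) became 166 higher and 77 lower with median-ratio rescaling, 130 and 94 with quantile normalization, 174 (159 and 15) with a pseudocount of 1 CPM, 140 genes with 80 higher after the GC correction (also with the replicate block or the 3-group fit), and 785 (531 and 254) against LIFR KO 1 alone. A filter of 2 CPM left 26 lower genes, a 1.5-fold limit gave 65 lower, and a 4-fold limit gave 57 (47 and 10). Leaving out 1 clone gave 237 to 991 (192 to 863 higher, 45 to 197 lower), with the highest count without LIFR KO 1, 815 without LIFR KO 3, and 666 (442 and 224) without LIFR KO 3 after the GC correction. The 44 FAM3C-side genes became 27 (pseudocount), 120 (LIFR KO 1 alone) and 29 (without chromosomes 4 and 15), and 42 to 102 when 1 clone was left out. The 51 LIFR-side genes became 32 (median-ratio), 29 (quantile), 26 (pseudocount), 9 (GC correction) and 174 (LIFR KO 1 alone), and 38 to 508 when 1 clone was left out. The 153 separated genes called in the second dataset stayed between 150 and 155 when 1 sample was left out. The median difference of all genes, 0.14, was 0.00 with median-ratio rescaling, −0.02 with quantile normalization and 0.00 after the GC correction.

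Of single named genes, 22 values reversed, 206 passed the test in an alternative and 1353 kept their direction and side. Reversed were Il11ra1 (−0.046 quantile, −0.15 in the 3 GC settings, −0.062 against LIFR KO 1 alone), Slc38a2 (0.060 in the GC settings, −0.14 to 0.052 when 1 clone was left out, 0.21 against LIFR KO 1 alone), Stat3 (−0.082 and −0.16), Socs3 (−0.16 and −0.28), the last pair in the GC settings and against LIFR KO 1 alone, Nupr1 (−0.34 to 0.073 when 1 clone was left out) and Fam3a (−0.034 against LIFR KO 1 alone). The cause was not tested. The replicate block gave 0 calls. The deviations of same-numbered clones correlated at 0.09, 0.16 and −0.01, so the numbers only name clones. In the second dataset the correlation was 0.05.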
